A study of Mus musculus with 3 samples.

Results

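The interferon-stimulated genes are a group of 42 protein-coding genes, chosen by name for being induced by interferon in many mouse cell types, out of 21851 protein-coding genes with an annotated protein-coding transcription start site (TSS). DNase-seq, in which the nuclease DNase I cuts DNA wherever chromatin is open, was run on mouse monocytes, the circulating phagocytes that give rise to macrophages. The cells were primary cells of female B6CASTF1/J mice aged 2 months, a first-generation cross of C57BL/6J with the wild-derived strain CAST/EiJ. The 3 libraries, labelled biological replicates 1, 2 and 4, formed 1 group, with no interferon or other treatment named, and shared 1 donor identifier. No separate animals are named, so the SD over libraries given below can be purely technical spread. No second group exists, so no test between conditions could be made, and the members were set beside all protein-coding genes by counts and medians.

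Interferons are secreted signals of infection. Type I interferon binds its receptor and, through the kinases JAK1 and TYK2, leads to assembly of the complex ISGF3, whose DNA-binding subunit is IRF9. ISGF3 binds the interferon-stimulated response element (ISRE), a purine-rich repeat found near the start of many interferon-stimulated genes, whereas interferon-gamma acts through the GAS element. The induced proteins sense foreign nucleic acid, block viral entry, translation and release, or tag other proteins with the ubiquitin-like ISG15. Monocytes are a major cell type in which this response is studied.

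The ISRE core was searched as GAAANNGAAA on both strands in promoters of RefSeq (GRCm38.p6, 250 bases before to 50 after each gene start), which were matched for 34 of the 42 members. Dhx58, Zbp1, Oas2, Usp18, Mx1, Ifi204, Rtp4 and Parp14 were not among them. At least 1 core was found in 18 of the 34 members, against 4.02% of 16515 matched protein-coding genes. Cores stood in members with and without accessible promoters, and examples of both are shown. A footprint counted as over a core if it shared at least 1 bp with it. The cores of Ddx58, Eif2ak2, Gbp3, Ifitm2 and Trim30a, all open in each library, had no footprint over them and are not printed. Those of Gbp3 lay 47 and 53 bases before the TSS, outside its promoter peak. A Slfn5 core 155 bases before the TSS also had none and is not printed. The following 30-base windows, read on the strand that spells GAAANNGAAA with the core in capitals, came from members whose promoter was open in each library, with a footprint over the core in 1 or more. Those of Isg20 and Slfn5 lie past the TSS, in the promoter peak and outside the RefSeq promoter searched.
Rsad2, chr12:26456553-26456582, plus strand: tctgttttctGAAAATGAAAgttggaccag
Ifih1, chr2:62646204-62646233, minus strand: gaagagaatcGAAACAGAAAccgatctgtg
Bst2, chr8:71537577-71537606, minus strand: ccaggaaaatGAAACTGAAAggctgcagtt
Gbp2, chr3:142620594-142620623, minus strand: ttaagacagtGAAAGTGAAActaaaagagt
Isg20, chr7:78913916-78913945, plus strand: taatgaaccaGAAACTGAAActaaaacagg
Slfn5, chr11:82952802-82952831, plus strand: tcgtgcctggGAAATAGAAActgatcccta

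The next windows came from members with no promoter peak in any library, or, for Ifit1 and Oas3, in 1 library. The printed Oas3 core had a footprint over it in 1 library, outside the promoter peak of Oas3, and no other core of this set had one.
Isg15, chr4:156200871-156200900, minus strand: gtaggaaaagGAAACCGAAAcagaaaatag
Ifit3, chr19:34583397-34583426, minus strand: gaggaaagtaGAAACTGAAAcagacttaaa
Oas1a, chr5:120907520-120907549, minus strand: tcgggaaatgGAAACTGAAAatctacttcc
Ifitm3, chr7:141010706-141010735, minus strand: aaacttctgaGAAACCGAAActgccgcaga
Ifi205, chr1:174031713-174031742, plus strand: cagtaactgaGAAAGTGAAAaatggggtat
Ifit1, chr19:34640794-34640823, minus strand: tcagcagtgaGAAACTGAAActgagactgg
Oas3, chr5:120777715-120777744, minus strand: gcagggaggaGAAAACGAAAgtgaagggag
The Isg15 promoter held 3 overlapping cores, 66, 72 and 78 bases before the TSS, and the printed window is centred on the one at 72. A core stood in 10 of the 23 matched members with a promoter peak in all libraries, in 3 of the 4 with one in 1 or 2 libraries, and in 5 of the 7 with none.

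Most members had an accessible promoter, but a low one. A promoter peak was one that reached within 1 kb of a protein-coding start, from the longer of the 2 lists deposited per library. Such a peak was present in all 3 libraries for 29 of the 42 members (69.0%), against 50.5% of all protein-coding genes. No library had one at 7 members (16.7%), against 44.1% of all genes, and 6 members had one in 1 or 2 libraries. By library, 34, 30 and 32 members had a promoter peak in replicates 1, 2 and 4. In the shorter, stricter list 23 members (54.8%) kept one in all libraries, against 46.9% of all genes. Among the taller 50% of peaks, 19 members (45.2%) had a promoter peak in all 3 libraries, against 44.1% of all genes, so the higher share of the members was not seen among tall peaks. The 10 members whose call ended there were Ddx58, Oas2, Ifit2, Ifitm2, Ifitm6, Mx1, Eif2ak2, Slfn1, Gbp2 and Trim30a.

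Heights are the authors' own signal values on a scale that is not stated, so each peak was also given as its percentile among all peaks of its library. Over the 29 members with a promoter peak in all libraries, the median percentile of the tallest promoter peak was 69.8, 61.3 and 64.2 in replicates 1, 2 and 4 (65.1 ± 4.28, SD, n = 3). Over 11029 such protein-coding genes it was 88.5, 85.4 and 87.1 (87.0 ± 1.58, SD, n = 3). The 2 ranges of library medians did not overlap. Single members spread widely, from percentile 7.76 for Mx1 in replicate 2 to 98.1 for Samhd1 in replicate 4. The median height was 1.57, 1.28 and 1.68 for the members, against 3.90, 3.24 and 4.94 for all genes. Of the 29 members 2, 3 and 3 lay above the median percentile of all genes in the 3 libraries, and Samhd1 and Trim25 did so in each. In replicate 1, 2 of the 42 members (4.76%) had a promoter peak at or above percentile 90 of the library's heights, against 22.8% of all genes. In a population of cells, a low peak made by few open cells and one made by little cutting in every cell cannot be told apart.

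**Figure D1:**
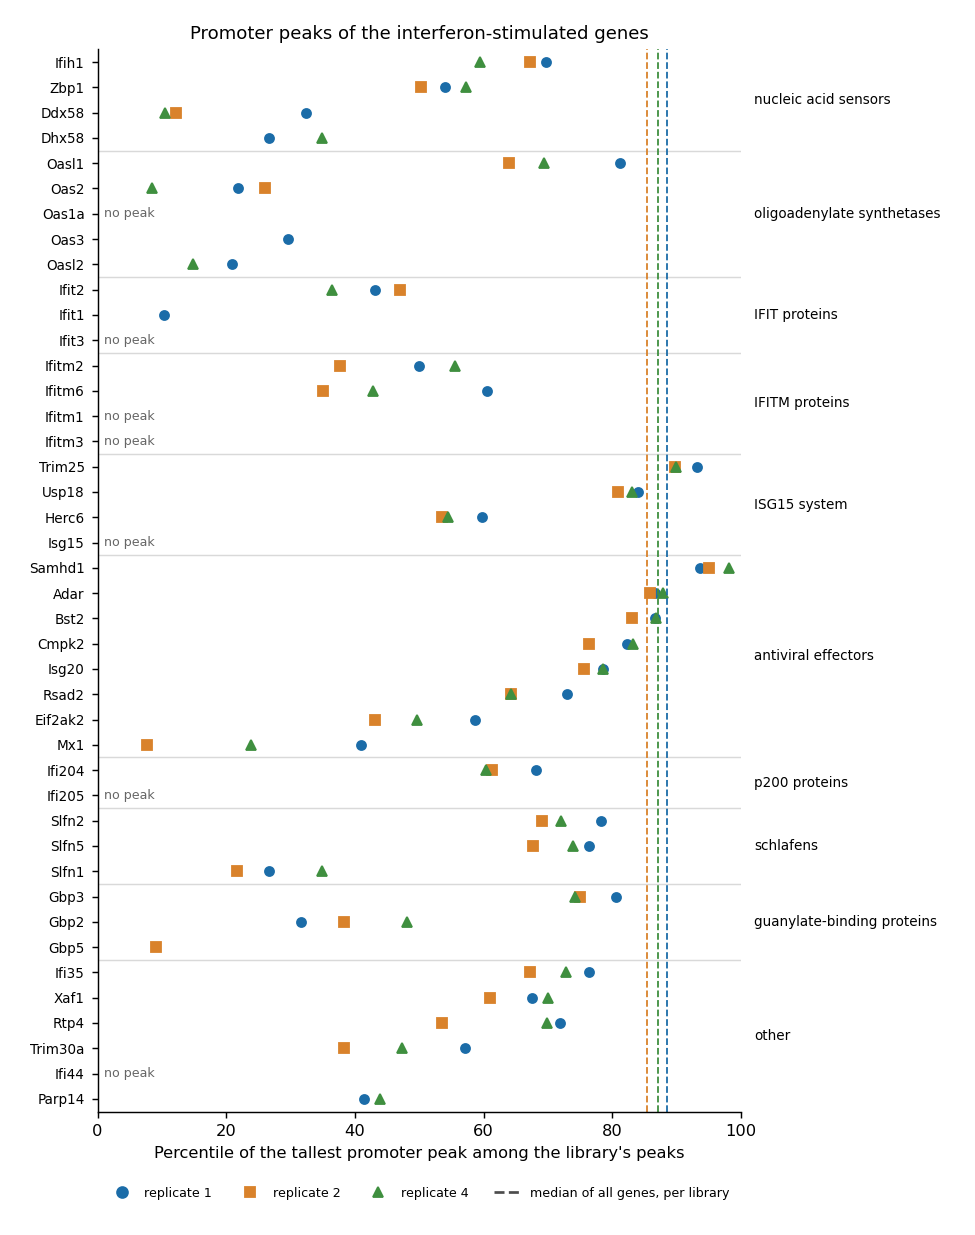
Percentile of the tallest promoter peak (x axis, 0 to 100, among all peaks of the library) of each of the 42 members (rows, grouped by role), with 1 point per library and dashed lines at the median of all protein-coding genes with a promoter peak in all 3 libraries. Only Samhd1 and Trim25 lie to the right of the line of the same colour in every library, and 7 members have no peak.

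**Figure D2:**
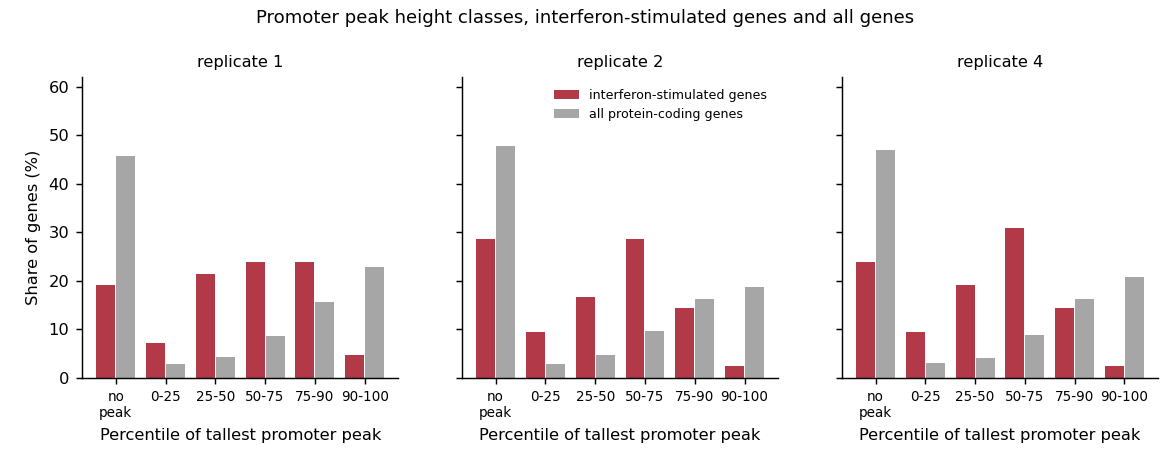
Share of genes (y axis, percent) by class of promoter peak height (x axis, percentile of the tallest promoter peak, or no peak) in each library, for the 42 interferon-stimulated genes and for all 21851 protein-coding genes. In each library the members exceed all genes in the classes from 0 to 75 and fall short of them in the top class and among genes with no peak.

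The accessible promoters of the members held less CpG than accessible promoters in general. CpG content was taken as the observed over expected number of CG dinucleotides in the RefSeq promoter, which is high in CpG islands. Its median was 0.317 in the 23 matched members with a promoter peak in all libraries, against 0.773 in 8746 matched genes with one. In the 7 matched members with no peak it was 0.238, against 0.232 in 6900 matched genes with none. Among promoters with a ratio under 0.25, a class where accessibility is rare, 9 of 15 members (60.0%) had a promoter peak in all libraries, against 382 of 4206 genes (9.08%). Between 0.25 and 0.5 the counts were 6 of 11 members and 33.3% of 2988 genes. All 8 members above 0.5 were accessible (6 of 6 and 2 of 2), beside 69.6% and 85.6% of genes in the 2 upper classes. Samhd1, at 0.907, and Ifih1, at 0.819, had the most CpG of the matched members, while Trim30a had none in its promoter and was accessible in all libraries. The members' peaks were lower than those of all genes within each of the 4 CpG classes too. Under 0.25 the median percentile was 60.6, 53.6 and 55.5 over the 9 accessible members, against 67.4, 58.8 and 66.4 over the 382 accessible genes. From 0.25 to 0.5 it was 74.7, 64.1 and 69.7 over 6 members, against 78.2, 72.5 and 76.3 over 995 genes. From 0.5 to 0.75 it was 72.7, 65.0 and 68.2 over 6 members, against 87.7, 84.2 and 86.3 over 2641 genes. From 0.75 up it was 81.7, 81.1 and 78.8 over 2 members, against 91.7, 89.5 and 90.7 over 4728 genes.

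**Figure D3:**
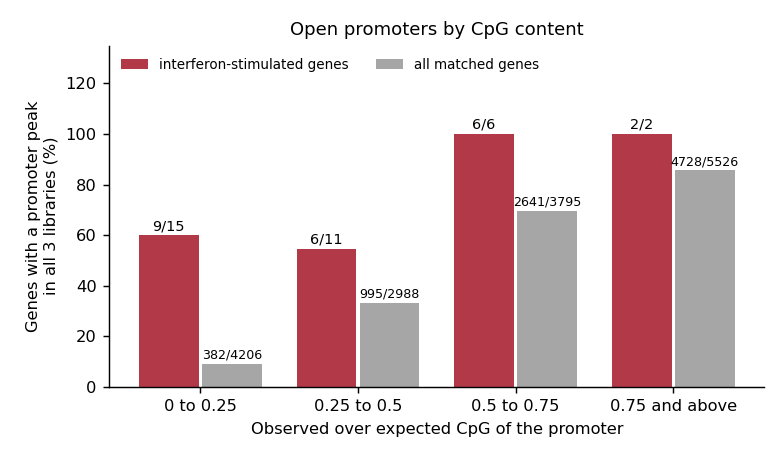
Share of genes with a promoter peak in all 3 libraries (y axis, percent) by observed over expected CpG of the RefSeq promoter (x axis), for the 34 matched members and all 16515 matched genes, with the counts above each bar. In the lowest class 9 of 15 members are accessible, against 382 of 4206 genes.

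Among the nucleic acid sensors, Ifih1, which encodes the long double-stranded RNA sensor MDA5, was the most accessible. Its tallest promoter peak had heights of 1.57, 1.52 and 1.46 in replicates 1, 2 and 4 (1.52 ± 0.0572, SD, n = 3), at percentiles 69.8, 67.2 and 59.5. That region, chr2:62646041-62646400, lies over the annotated TSS and holds the ISRE core printed above, 12 bases before the TSS, with a footprint over the core in all 3 libraries. Zbp1, a sensor of left-handed nucleic acid that can trigger necroptosis, had promoter heights of 1.02, 0.984 and 1.37. Ddx58, which encodes the RNA sensor RIG-I, had lower peaks of 0.660, 0.488 and 0.495, at percentiles 32.4, 12.2 and 10.5. Dhx58, which encodes the regulator LGP2, had a promoter peak of 0.594 in replicate 1 and 0.817 in replicate 4 and none in replicate 2. A region inside the Dhx58 gene, 1.58 kb past the TSS, was open in every library, with heights of 1.99, 1.43 and 2.35, and a further one at 2.77 kb, chr11:100701401-100701600, reached 4.03, 2.56 and 8.01. Both internal regions of Dhx58 were taller than its promoter peak in replicates 1 and 4.

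The oligoadenylate synthetases make the second messenger that activates RNase L, and 2 of these 5 members had a promoter peak in all libraries. Oasl1, a member that lacks the enzyme activity and restrains Irf7 translation, was the tallest, at 2.52, 1.37 and 2.01. The value of replicate 1 came from a region centred 1.17 kb before the TSS, which had 2.52, 1.78 and 1.87. The region at the TSS had 1.86, 1.37 and 2.01 (1.74 ± 0.330, SD, n = 3). Oas2 had low peaks of 0.544, 0.630 and 0.470, between percentiles 8.53 and 26.0. Oas3 had a peak of 0.627 in replicate 1 only, and Oasl2 had peaks of 0.536 and 0.545 in replicates 1 and 4. Oas1a had no promoter peak and no distal peak in any library, and the nearest region seen in all 3 lay 70.6 kb away.

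Of the IFIT genes, whose proteins bind foreign RNA and block its translation, Ifit2 alone had a promoter peak in each library, at 0.808, 0.922 and 0.842 (0.857 ± 0.0586, SD, n = 3). The 3 values sat close together, at percentiles 43.1, 47.1 and 36.5. Ifit1 had a peak of 0.429 in replicate 1, at percentile 10.4, in a region that also lies in the promoter window of Ifit1bl2. Ifit3 had none. These genes lie side by side on chromosome 19, and the tallest distal region of both Ifit2 and Ifit3 was the same one, chr19:34548081-34548260, 2.54 kb before the Ifit2 TSS, with heights of 3.22, 2.78 and 4.22. It was taller than the Ifit2 promoter in every library.

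The IFITM proteins restrict viral entry at membranes, and their genes cluster on chromosome 7. Ifitm2 had promoter heights of 0.932, 0.771 and 1.31, in a region shared with the window of Gm45717. Ifitm6 had heights of 1.20, 0.736 and 0.965. Ifitm3, which limits influenza virus, and Ifitm1 had no promoter peak in any library. At Ifitm3 a region just past the end of the gene, chr7:141009081-141009280, 1.59 kb past the TSS, was open at 2.91, 2.35 and 4.25 (3.17 ± 0.974, SD, n = 3). It lies outside the window of 1 kb, and a window of 2 kb counted it, as it did regions at Dhx58 and Oas3. With 2 kb, 32 members had a promoter peak in all libraries, against 52.2% of all genes. All 4 genes of this cluster had many distal peaks, described below.

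In the ISG15 system, the gene of the modifier itself was without a promoter peak while those of its enzymes had one. Isg15 had no peak within 1 kb of its TSS in any library. The nearest region, chr4:156202981-156203220, 2.28 kb before the TSS, had heights of 1.69, 1.43 and 2.62. That region lies in the promoter window of another protein-coding gene and was not counted as distal. Trim25, which encodes a ubiquitin and ISG15 ligase that acts with RIG-I, had heights of 5.52, 4.20 and 5.99 (5.24 ± 0.926, SD, n = 3), at percentiles 93.1, 89.7 and 89.9. Usp18, which encodes the protease that removes ISG15 and dampens the interferon receptor, had heights of 2.93, 2.58 and 3.82. Herc6, a mouse ISG15 ligase, had heights of 1.18, 1.06 and 1.27.

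All 8 antiviral effectors had a promoter peak in all libraries. Samhd1, which encodes a hydrolase that depletes deoxynucleotides and limits retroviruses, was the tallest member, at 5.80, 6.09 and 12.7 (8.19 ± 3.89, SD, n = 3). Replicate 4 stood well above the other 2 in height, and less so in percentile, at 93.7, 95.0 and 98.1. Adar, which encodes an RNA adenosine deaminase, had heights of 3.45, 3.33 and 5.20. That Adar peak, chr3:89730581-89730860, lies at the downstream TSS, whereas the region at the upstream TSS had 1.51, 1.30 and 1.03. Bst2, which encodes tetherin, a protein that holds budding virions at the cell surface, had heights of 3.46, 2.86 and 4.81. The mean percentiles of these 3 genes were 95.6, 86.8 and 85.5.

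The other effectors were lower. Cmpk2, a mitochondrial nucleotide kinase gene, had heights of 2.66, 2.11 and 3.86, and Isg20, a gene of an exonuclease of single-stranded RNA, had 2.23, 2.04 and 2.98. Rsad2, which encodes viperin, had 1.76, 1.38 and 1.68, with the printed ISRE core 120 bases before the TSS under a footprint in all 3 libraries. Eif2ak2, which encodes the translation-blocking kinase PKR, had 1.15, 0.851 and 1.13. Mx1, a dynamin-like GTPase gene, was the lowest of the effectors, at 0.775, 0.434 and 0.656, and between percentiles 7.76 and 40.9.

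In the remaining groups the tallest promoter had a mean percentile between 63.3, for Ifi204, and 76.6, for Gbp3. Of the p200 genes, a family of DNA-binding proteins, Ifi204 had heights of 1.49, 1.28 and 1.50, and Ifi205 had no promoter peak. The nearest shared region of Ifi205 lay 9.27 kb before the TSS, in the promoter window of another protein-coding gene. Of the schlafens, Slfn2, which keeps T cells and monocytes quiescent, had 2.19, 1.60 and 2.22. Slfn5 had 2.02, 1.53 and 2.39, and Slfn1, which slows thymocyte growth, had 0.594, 0.585 and 0.817. Of the guanylate-binding proteins, which attack vacuoles of intracellular pathogens, Gbp3 had 2.45, 1.99 and 2.43. Gbp2 had 0.651, 0.780 and 1.09, and Gbp5 had a single low peak of 0.452 in replicate 2. The 4 remaining members with a promoter peak in all libraries lay at or below percentile 76.4. Ifi35 had heights of 2.02, 1.52 and 2.29. Xaf1, which encodes a partner of the apoptosis inhibitor XIAP, had 1.47, 1.27 and 2.05. Rtp4, a gene of a receptor chaperone, had 1.70, 1.06 and 2.04, at a downstream TSS. Trim30a, a restraint on Toll-like receptor signalling in mice, had 1.10, 0.780 and 1.06. Parp14, an ADP-ribosyltransferase gene, had peaks of 0.783 and 0.990 in replicates 1 and 4, and Ifi44 had no promoter peak, its nearest peak lying 238542 bp away in replicate 4 and 355481 bp away in the other libraries.

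The 7 members with no promoter peak were Oas1a, Ifit3, Ifitm1, Ifitm3, Isg15, Ifi205 and Ifi44. A deposited map lists every stretch where the false discovery rate (FDR) of cutting fell below 0.05, and it listed no stretch within 1 kb of a TSS of these 7 genes in any library. Such a stretch without a peak is uncommon in general, at 2.36%, 2.30% and 1.92% of all genes without a promoter peak in replicates 1, 2 and 4. Among members it occurred at 0 of 8, 1 of 12 (Parp14) and 0 of 10. The depth of the libraries is not given, so these promoters had no cutting detectable at this depth, which is not the same as closed chromatin. Reads that match several places can be lost, so the share of 32-base words of each promoter found more than once in the genome was measured. It was 61.7% for Ifit3, 17.8% for Ifi44, 16.7% for Oas1a, 9.29% for Ifi205 and 0% for Isg15, Ifitm1 and Ifitm3. Trim30a, accessible in all libraries, had 24.9%. Over 50% of the words were repeated at 1 of 34 members, against 5.87% of genes, and the part of repeats in the missing peaks was not tested. Words and ISRE cores were read from the reference genome only, and the CAST/EiJ alleles of these mice were not examined.

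Footprints are short stretches of fewer cuts inside a peak, which can mark a bound protein. At least 1 footprint stood in a promoter peak in all 3 libraries at 23 members (54.8%), against 48.2% of all genes. Over genes with a promoter peak in all libraries, the median number was 4, 3 and 3 for the members in replicates 1, 2 and 4, against 5, 4 and 5 for all genes. Per kb of promoter peak it was 13.0, 11.1 and 7.69, against 13.6, 13.6 and 13.9. Adar had 11, 7 and 10 footprints, Isg20 had 11, 9 and 10, and Slfn2 had 12, 6 and 7. Ddx58 and Oas2 had none in replicate 4, Gbp2 had none in replicate 1 and Mx1 had none in replicate 2. Ifitm2, with a promoter peak in all libraries, had 0, 0 and 1. Trim30a had 8 in replicate 1 and 0 in both other libraries, at nearly equal heights of 1.10 and 1.06 in replicates 1 and 4. Its promoter peaks were of very unequal width, at 640, 106 and 60 bp in replicates 1, 2 and 4. Oasl2 and Ifit1 had no footprint in any library. The part of peak height and peak width in these counts was not tested.

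In the peak regions themselves, an ISRE core was found at 10 of the 23 matched members with a promoter region open in all libraries (43.5%), against 3.72% of 8738 matched genes. The median summed length of these regions was 380 bp for the members and 320 bp for all genes. These members were Ifih1, Ddx58, Ifitm2, Rsad2, Bst2, Eif2ak2, Isg20, Slfn5, Gbp2 and Trim30a. A footprint overlapped a core by at least 1 bp in all libraries at Ifih1 and Rsad2, in 2 at Bst2 and Gbp2, and in 1 at Isg20 and Slfn5. Ddx58, Ifitm2, Eif2ak2 and Trim30a had a core in their merged region with no footprint over it in any library. The peak of a single library did not always reach the core. In replicate 1 the nearest peak lay 107 bp from the TSS at Ifitm2 and 62 bp at Gbp2, farther than the core. At Trim30a it lay 67 and 208 bp away in replicates 2 and 4, again farther than the core. In the RefSeq promoters, the GAS core TTCNNNGAA was found at 11 of 34 members, against 9.02% of genes. The composite of an ETS site and an ISRE half-site, GGAANNGAAA, which PU.1 can bind with IRF4 or IRF8, was found at 6 of 34, against 3.05%. Of the matches in member promoters, 2 of 12 GAS cores and 0 of 7 composite cores overlapped an ISRE core. A match of this kind describes the letters and does not show that a factor was bound.

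Peaks away from promoters were more numerous around the members than around genes in general. Distal peaks lay outside the promoter windows of all protein-coding genes and within 50 kb of the most upstream protein-coding TSS. The members had a mean of 3.40, 3.79 and 3.55 distal peaks in replicates 1, 2 and 4 (3.58 ± 0.192, SD, n = 3), against 2.69, 2.05 and 2.47 for all genes. The medians were 3, 2 and 3 for the members, against 2, 1 and 2. Only Oas1a and Ifi44 had no distal peak in any library (4.76%), against 26.3% of all genes. Neighbours share peaks, since 18 members lie within 100 kb of another member. The 143, 159 and 149 pairs of a member and a distal peak came from 113, 128 and 115 distinct peaks. The window of Rtp4, with 3 peaks in each library, is centred on a TSS 89634 bp from its most downstream one. The promoter peaks of Rtp4 lie at downstream TSSs, outside that window. With the taller 50% of peaks the means were 1.40 for the members and 1.19 for all genes.

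Apart from Zbp1, described below, Slfn2, Slfn1, the IFITM cluster, Trim25 and Bst2 had the highest mean numbers of distal peaks. The counts given are of all distal peaks of a library, including those not seen in every library. Slfn2 had 11, 8 and 10 and Slfn1 had 8, 8 and 7, partly the same peaks, since their TSSs lie 51.7 kb apart. The schlafen Slfn5 had only 1, 1 and 2. Ifitm3 and Ifitm6 each had 7, 7 and 8, largely the same peaks, since their TSSs lie 7.15 kb apart. Trim25 had 8, 6 and 7 and Bst2 had 7, 6 and 6. The counts of each of these genes differed by at most 3 between libraries. Parp14, by contrast, had 7, 2 and 8, and Rsad2 and Cmpk2, which are neighbours on chromosome 12, had 3, 1 and 6 and 2, 1 and 6.

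The tallest distal region of the members was at Bst2, chr8:71521761-71521940, 15.6 kb past the TSS, with heights of 7.08, 5.80 and 9.37 (7.42 ± 1.81, SD, n = 3). It was taller than the Bst2 promoter in each library. The next was 25.1 kb past the Trim25 TSS, chr11:89024401-89024640, with heights of 6.62, 5.66 and 8.61. A region at chr7:141048321-141048520 was the tallest distal one of both Ifitm3 and Ifitm6, at 4.19, 2.97 and 4.12, and one at chr11:83078181-83078400 was the tallest of both Slfn1 and Slfn2, at 3.08, 2.83 and 4.15. At Samhd1, the member with the tallest promoter, the tallest distal region reached 1.27, 1.01 and 1.60. Of 178 distinct distal regions of the members, 70 were seen in all 3 libraries and 77 in 1.

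**Figure D4:**
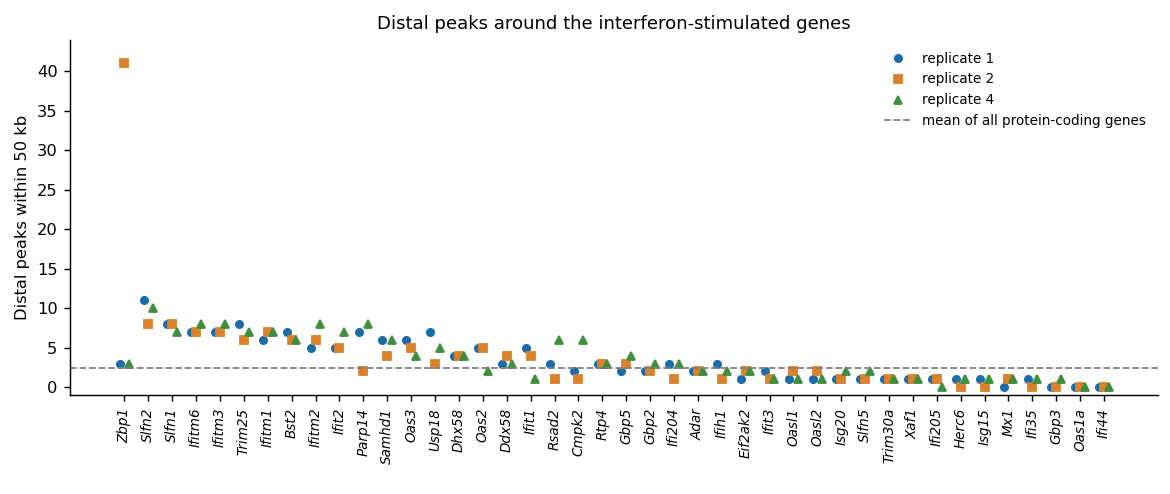
Number of distal peaks within 50 kb (y axis) of each of the 42 members (x axis, ordered by their mean), 1 point per library, with a dashed line at the mean over all protein-coding genes and libraries. Zbp1 has 41 in replicate 2 and 3 in each of the others, whereas Slfn2 has 8 to 11 in all 3.

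Zbp1 stood apart in 1 library. It had 41 distal peaks in replicate 2, and 3 in replicate 1 and 3 in replicate 4. A window was called crowded in a library with at least 2 times as many distal peaks as the higher of the others and at least 5 more, which held for 1 of 42 members, against 0.522% of all genes. The crowded peaks were low, with a median height of 0.168, against 0.816 for all distal peaks of that library. Of the 41, 37 were below 0.390, the 5th percentile of that library's heights, and 3 overlapped a peak of another library. They began 6.65 kb past the TSS, with 14 of the 37 low ones inside the Zbp1 gene and 23 past its end, and the last at 44.9 kb. The shorter list also held 30 of the 41. Stretches with a listed FDR covered 13.8% of the window of 50 kb on either side in replicate 2, and 1.39% and 1.28% in replicates 1 and 4. The tall distal region 10.8 kb before the TSS and the promoter peak were alike in all libraries, at 2.59, 2.52 and 2.51 and at 1.02, 0.984 and 1.37. With Zbp1 and the crowded windows of other genes left out, the members had a mean of 3.41, 2.88 and 3.56 distal peaks, against 2.65, 2.02 and 2.46 for all genes.

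**Figure D5:**
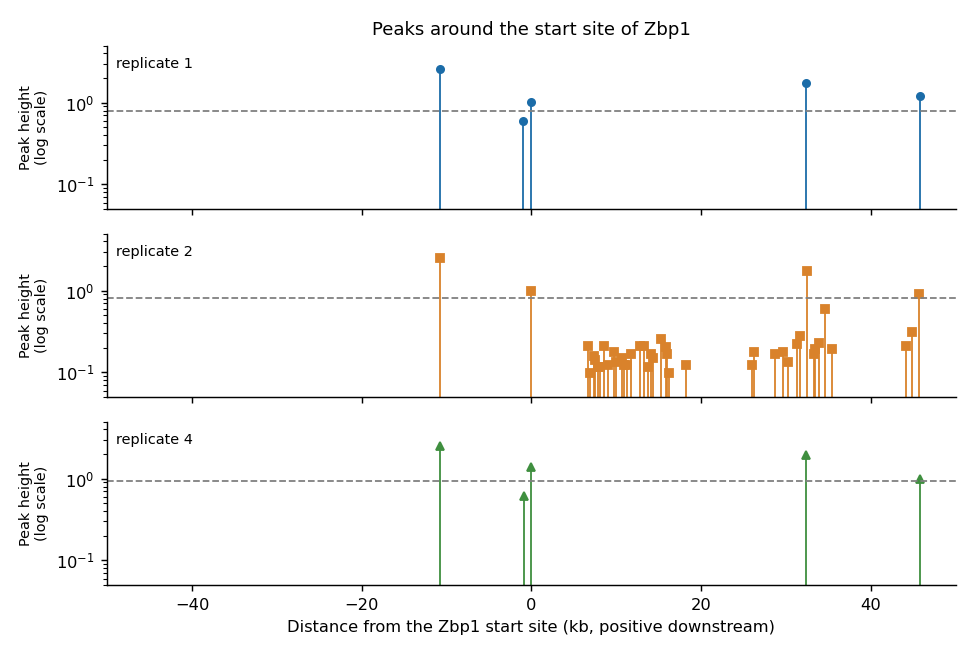
Height of every peak (y axis, log scale, the authors' signal units) by distance from the Zbp1 TSS (x axis, kb, positive past the start) in each library, with a dashed line at the median height of the library's distal peaks. Replicate 2 has a run of low peaks from 6.65 to 44.9 kb that the other libraries lack, and the peak 10.8 kb before the TSS is present in all 3.

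The genes that carry the interferon signal to these targets had a promoter peak more often than the members, and typically a taller one. The comparison list held receptors, kinases, transcription factors, inducers and inhibitors of the pathway, of which 22 matched the annotation. A promoter peak was present in all libraries at 21 of them, against 29 of the 42 members and 50.5% of all genes. The exception was Tmem173, which encodes the adaptor STING, with low peaks of 0.461 and 0.743 in replicates 2 and 4. The median percentile over the 21 was 91.3, 90.2 and 91.9, well above that of the 29 members in each library. It was closer to the 88.5, 85.4 and 87.1 of all genes. The CpG content of this list was not compared. Among them, Ifnar1, a subunit of the type I receptor, had heights of 11.8, 9.19 and 19.3, and Irf9, the DNA-binding subunit of ISGF3, had 6.69, 4.79 and 7.95.

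The labelled cell type was checked against marker genes. Csf1r, Cx3cr1, Itgam and Spi1, of 7 monocyte markers, had promoter peaks in all libraries, Ly6c2 and Fcgr1 in 1 each and Ccr2 in none. Of 23 markers of neutrophils, lymphocytes, natural killer cells, erythroid cells and hepatocytes, S100a8, Mmp8 and Cd5 had promoter peaks in all libraries and the other 20 had none in any. Their part in the members' values was not tested.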

How the data were processed

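DNase-seq of mouse monocytes was analysed in 3 libraries of 1 group. Per the labels, the reads refer to mm10 and each library was processed on its own. The tools that aligned reads and called peaks and footprints are not given in the sources used. The deposited peak lists give positions and 1 height per peak, a signal that the authors computed, with no stated scale. The longer list of each library (54046, 42657 and 48980 peaks in replicates 1, 2 and 4) was used, and the shorter one was an alternative. The deposited footprints were used as positions only, since their score is a constant. The deposited FDR map holds values of the p-value kind, which the authors listed below 0.05. Read depth is not given, so no interval or floor was computed.

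From these files, TSSs came from GENCODE M21 (release 21, basic set) on GRCm38.p6: 41438 TSSs of 21851 protein-coding genes, with 87 genes left out that have no protein-coding transcript there. A promoter peak overlapped a window of 1000 bp on either side of a TSS by at least 1 bp. Percentiles ranked heights among all peaks of a library, with ties counted by midrank. Peaks of all libraries were merged where they overlapped to give regions. The tables were made with Python 3.11.15, pandas 2.3.3, numpy 2.4.6, pysam 0.24.0, numba 0.67.0 and bedtools 2.31.1. The measuring steps were tested on simulated data with planted peaks, footprints and cores, of which 100% were recovered.

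The members, role groups and comparison lists were chosen with earlier results of these data known. No test was made, since there is 1 group and the members are not replicates. Members were named by a rule: within each role group the up to 3 with the tallest promoter peaks, those with the most distal peaks, those with a promoter peak in 1 or 2 libraries, those with a crowded window, and all without a promoter peak. Cmpk2, Isg20, Eif2ak2, Mx1 and Trim30a fell outside it and were given after their values were seen, so that each role group is complete. Mb21d1 and Trac did not match the annotation. The values of 1 pathway gene are not reported here.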

Additional observations from a re-analysis of the deposited data

How the results depend on the processing

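The share of members with a promoter peak in all libraries lay between 45.2% and 76.2% under 9 alternatives, against 44.1% to 52.2% of all genes. With the taller 50% of peaks it was close to that of all genes, at 45.2% against 44.1%, and under the others it was higher. They exceeded all genes in distal peaks under each of 9 and fell below them in median percentile under each of 6. The count of 29 members changed to 19 with the taller 50% of peaks. The mean of 3.58 distal peaks per member changed to 2.21 with the shorter list, 1.90 within 25 kb, 6.71 within 100 kb, 1.40 with the taller 50% of peaks and 3.28 with crowded windows left out. A window around the most downstream TSS, added after seeing the data, gave 3.52. The median percentile of 65.1 changed to 58.0 with the shorter list and 46.5 with the lowest promoter peak of each member. The count of 10 members with an ISRE core in a promoter region changed to 2 with an A before the core and 6 with a footprint over it. The shares of matched genes with such a region were 1.19% and 1.79%. Leaving out 1 library at a time gave 29 to 32 members with a promoter peak, against 50.7% to 51.9% of all genes. It gave 3.48 to 3.67 distal peaks, against 2.26 to 2.58, and a median percentile of 62.8 to 65.5, against 86.2 to 87.4. A footprint was then present at 24 to 25 members, against 48.5% to 49.6% of all genes. An ISRE core was found at 9 to 11 members, against 3.37% to 3.84% of matched genes with a region. Beyond those settings' own construction, the causes were not tested. No paired analysis was possible because there is 1 group and no test. The dataset limits these values through its single group, 1 donor identifier, unknown depth and a height of unstated scale, which leaves low peaks the least certain.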
